A study of Mus musculus with 11 samples.

Results

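The eukaryotic replicative helicase is loaded on DNA before it is used. During G1 phase the origin recognition complex, Cdc6 and Cdt1 place inactive rings of the 6 subunits Mcm2 to Mcm7 on chromatin, a step called licensing, and in S phase Cdc45 and the GINS proteins join the ring while Mcm10 helps to start unwinding. Many of these genes are known targets of E2F transcription factors, so that their mRNAs rise and fall with entry into the cell cycle, and BV2, a transformed line of mouse microglia, divides in culture. The licensing genes described here are Mcm2, Mcm3, Mcm4, Mcm5, Mcm6, Mcm7, Mcm10, Cdc6, Cdt1 and Cdc45, taken by symbol from the deposited counts. These are 10 genes of the 36529 listed, and all 10 passed the filter on low counts in every comparison.

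RNA was sequenced from 11 samples of BV2 cells in separate experiments for each fragment. ApoE4 denotes 3 samples given nApoE4, residues 1 to 151 of apolipoprotein E4 with a His tag, at 25 μg/mL for 5 h, and ControlA denotes the 3 untreated samples that served as their controls. ApoE3 denotes 2 samples given the same fragment of apolipoprotein E3 at the same dose and time, and ControlB denotes its 3 untreated controls. The fragments differ by an amino acid, arginine in nApoE4 and cysteine in nApoE3. All samples are of a transformed line, the labels name a PBS vehicle while the study's methods name conditioned media for the controls, and the study speaks of independent measurements without saying whether replicates were separate cultures, so p-values measure the spread between these samples, which may be technical. Because each fragment was tested in its own experiment, fragment and experiment cannot be told apart.

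Depth was 39732710 to 44162511 gene counts per sample in the nApoE4 experiment and 55809688 to 69768666 in the nApoE3 experiment. Levels are given as CPM, counts scaled to the size of each library after TMM normalization. Of 10 microglia and macrophage markers, P2ry12 had no counts in any sample, and the summed level of the list was 2540 to 2670 CPM in ControlA, 2830 to 2980 CPM in ApoE4, 1990 to 2080 CPM in ControlB and 2450 to 2460 CPM in ApoE3. This sum came mainly from Cd68, Csf1r, Spi1, Ptprc and Itgam. Aif1, Cx3cr1 and Tmem119 reached at most 0.142, 0.739 and 9.15 CPM in any sample. Trem2 reached 60.5 CPM in a ControlA sample, against at most 5.29 CPM in the other groups. The neuron, oligodendrocyte and fibroblast lists summed to at most 25.5 CPM in any sample. The astrocyte list summed to 1.2 to 1.39 CPM in ControlA against 6.02 to 7.03 CPM in ApoE4, and to 1.07 to 1.3 CPM in ControlB against 4.37 to 4.53 CPM in ApoE3. The neuron list was at 1.97 to 2.51 CPM in ControlA, 5.32 to 6.39 CPM in ApoE4, 1.15 to 1.52 CPM in ControlB and 1.5 to 1.51 CPM in ApoE3. The rise of the astrocyte list came mainly from Slc1a2, at 0.781 to 1.11 CPM in ControlA and 5.92 to 6.76 CPM in ApoE4. Slc1a2 was at 0.985 to 1.19 CPM in ControlB and 4.3 to 4.45 CPM in ApoE3. No other astrocyte gene passed 0.424 CPM in any sample, and Aqp4 and Gja1 had no counts in ControlA and ApoE4. The rise of the neuron list with nApoE4 came mainly from Tubb3, at 1.78 to 2.4 CPM in ControlA and 5.04 to 6.2 CPM in ApoE4. The part of these shifts in the results below was not tested. ControlA replicate 2 stood apart within its group, with a chi-square per degree of freedom over genes of 25.8 and 47.9 against the other ControlA samples and 7.85 between those. Without it, 8827 genes were called with nApoE4 in place of 8145, and the same 9 licensing genes were lower.

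Promoter windows of 250 bases before to 50 bases after the annotated start were read from RefSeq (GRCm38.p6) for the 9 genes that matched, all but Mcm4. They were searched on both strands for 4 E2F words of 7 letters, which can overlap each other. They are the word TTCCCGC, the word TTCGCGC, the word TTGCCGC and the word TTGGCGC. At least 1 of them was present for 6 of the 9 genes (Mcm3, Mcm5, Mcm6, Mcm7, Cdc6 and Cdt1), while 10.9% of 27025 genes with a window held them. The same words with a further T in front (TTTCCCGC, TTTCGCGC, TTTGCCGC and TTTGGCGC) were present for the same 6 genes and for 2.6% of all genes. The CCAAT box was present for 7 of the 9 genes, against 41.1% of all genes, and the words TTTGAA or TTCGAA of the cell cycle homology region for 3 of the 9, against 21.7%. Windows are shown for the gene with the largest change (Cdc6), for the subunit gene with the most E2F words (Mcm6), and for a pair without such a word, of which Mcm2 fell with both fragments and Mcm10 differed between them. Sequences run 5′ to 3′ on the strand of the gene, with E2F words in capitals.
Cdc6 promoter window, chr11:98907901-98908200, plus strand: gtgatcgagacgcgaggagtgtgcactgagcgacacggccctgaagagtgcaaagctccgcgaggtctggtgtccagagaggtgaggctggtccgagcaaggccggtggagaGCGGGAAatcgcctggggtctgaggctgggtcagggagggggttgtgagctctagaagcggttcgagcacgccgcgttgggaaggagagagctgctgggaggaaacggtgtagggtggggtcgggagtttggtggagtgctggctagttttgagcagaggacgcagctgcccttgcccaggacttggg
Mcm6 promoter window, chr1:128359656-128359955, minus strand: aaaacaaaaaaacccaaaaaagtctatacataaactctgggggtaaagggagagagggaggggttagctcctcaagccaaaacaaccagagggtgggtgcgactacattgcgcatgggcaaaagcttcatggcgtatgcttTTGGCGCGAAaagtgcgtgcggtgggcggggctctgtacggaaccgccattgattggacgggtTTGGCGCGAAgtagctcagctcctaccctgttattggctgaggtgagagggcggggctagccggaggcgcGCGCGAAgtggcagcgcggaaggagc
Mcm2 promoter window, chr6:88898731-88899030, minus strand: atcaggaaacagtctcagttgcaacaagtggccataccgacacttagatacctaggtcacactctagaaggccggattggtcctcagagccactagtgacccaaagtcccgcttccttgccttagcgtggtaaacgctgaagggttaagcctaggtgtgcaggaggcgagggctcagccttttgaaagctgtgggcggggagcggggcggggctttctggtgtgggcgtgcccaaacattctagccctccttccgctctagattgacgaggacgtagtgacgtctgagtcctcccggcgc
Mcm10 promoter window, chr2:5012742-5013041, minus strand: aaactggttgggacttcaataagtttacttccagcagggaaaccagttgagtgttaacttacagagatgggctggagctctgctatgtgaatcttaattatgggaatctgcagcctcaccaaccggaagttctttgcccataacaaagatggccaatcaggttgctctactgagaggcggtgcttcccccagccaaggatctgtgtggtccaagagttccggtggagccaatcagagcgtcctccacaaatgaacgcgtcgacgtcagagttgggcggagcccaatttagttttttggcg
In Mcm6, overlapping words formed 2 runs upstream of the start, at -109 and -46 bases, and another word lay at 24 bases, with positions counted to the leftmost base from 0 at the start. The bases that follow the start used for Mcm6 and for Mcm5 were not found near the beginning of any GENCODE transcript of that gene. Positions in these windows are thus less certain. The word in Cdc6 lay at -138 bases. The RefSeq span of Cdc6 begins upstream of this window, at 98907709, so the window and the word in it lie within the annotated gene span. A match is only a description of the letters, and the absence of a match says only that these letters are not in the window. The Mcm10 window ends on all but the last letter of the word TTGGCGC, and the base beyond it was not read.

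In comparison to untreated controls, transcripts of the licensing genes were lower after treatment with either fragment. With nApoE4, 9 of the 10 genes fell and none rose at an adjusted p-value under 0.05 (edgeR quasi-likelihood test with Benjamini-Hochberg adjustment over all genes), and Cdc45 did not pass. Of the 14240 genes tested in this experiment, 57.2% were called in either direction and 28.6% were called lower. The median log2 fold change of the 10 genes was -0.71, against 0.00128 for all genes tested. With nApoE3, 8 of the 10 fell and none rose, while Mcm10 and Cdc45 did not pass, and 67.7% of 14817 genes were called in either direction, 33.1% higher and 34.6% lower. The median of the 10 genes was -0.68, against -0.00261 for all genes. Every treated sample was below every control for 9 of the 10 genes with nApoE4 (all but Cdc45), against 32.1% of all genes tested, and for 9 of the 10 with nApoE3 (all but Mcm10), against 39%. These counts refer to the TMM scale. With library totals alone the median of all genes shifted to -0.0887 for nApoE4 and -0.13 for nApoE3, and the share of calls that were higher moved from 49.9% to 39.9% and from 48.9% to 34.6%, while the same comparison then called 9 and 10 of the licensing genes lower. Fewer cells of a state that holds these transcripts and less of the transcripts per cell cannot be told apart in bulk RNA.

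**Figure D1:**
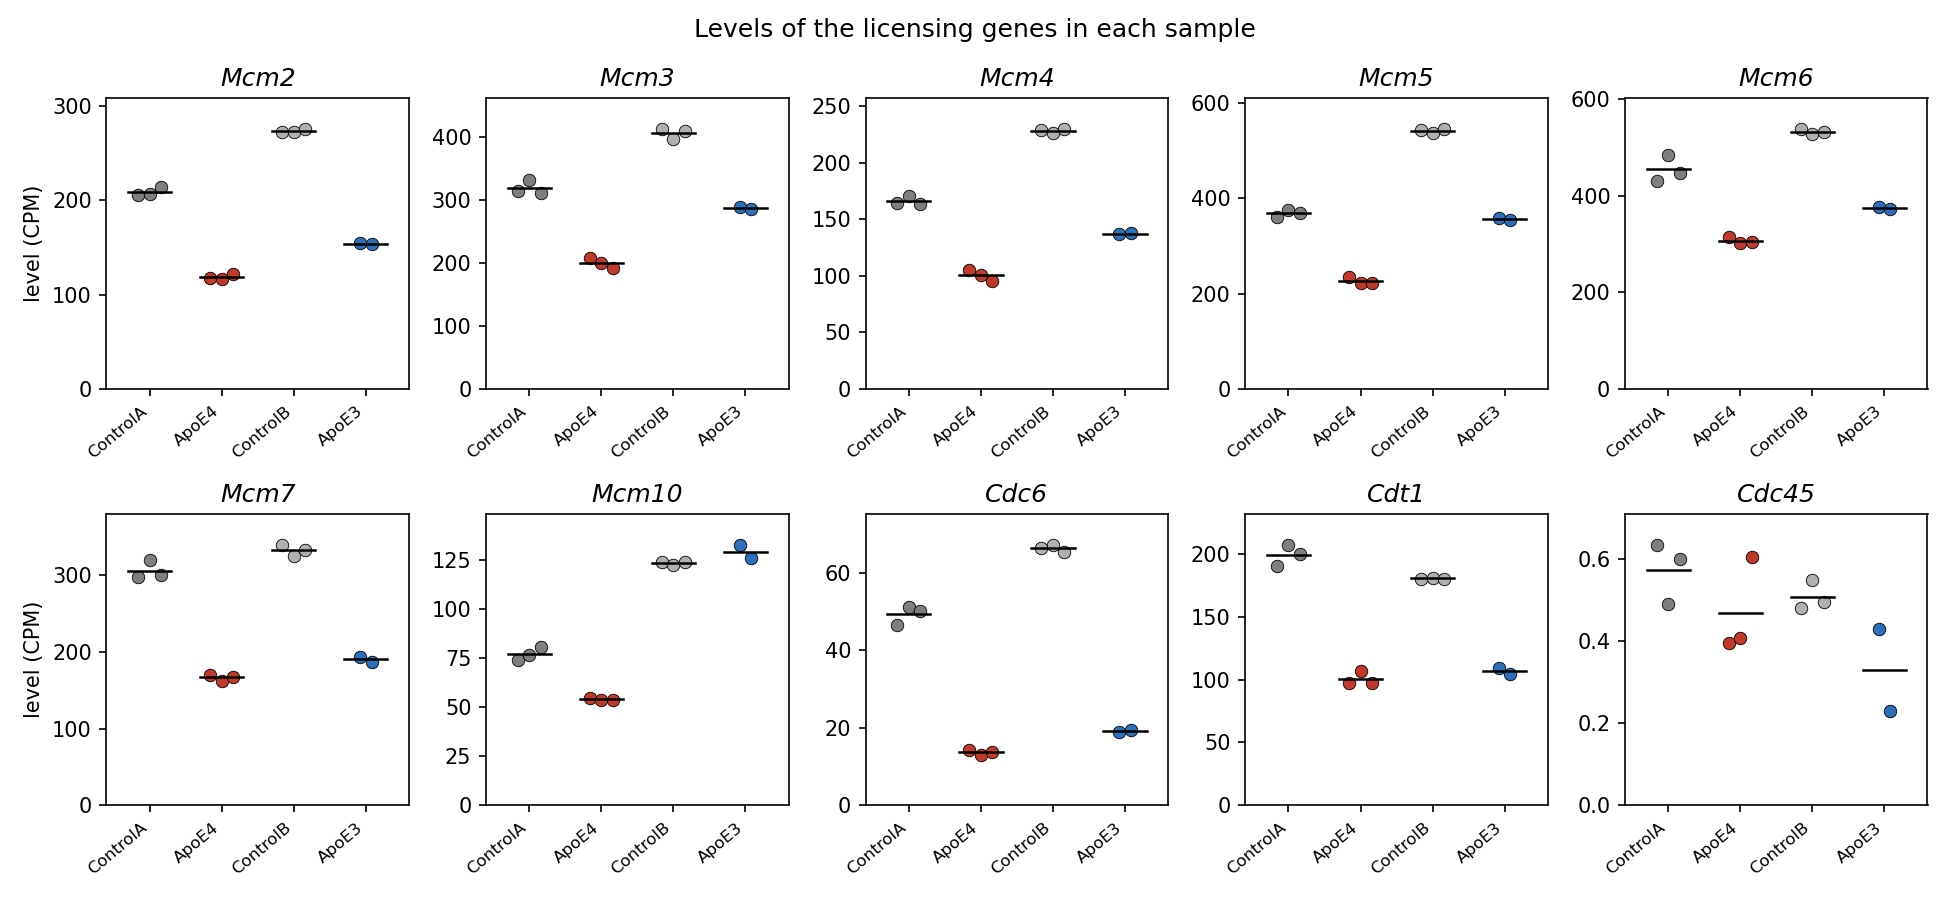
Levels of the 10 licensing genes in each of the 11 samples, in CPM on linear axes that start at 0, with a dot for each sample and a line at the group mean. For Mcm2 to Mcm7, Cdc6 and Cdt1 every treated sample lies below every control of its experiment, as it does for 32.1% of all genes with nApoE4 and 39% with nApoE3, whereas both ApoE3 samples of Mcm10 lie above ControlB and the groups of Cdc45 lie under 0.7 CPM.

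Cdc6, the ATPase that joins the origin recognition complex to load the helicase, showed the largest change of the 10 genes. The gene lies on chromosome 11 (98907709 to 98923942, plus strand, GRCm38.p6). Its level was 46.7, 51.2 and 50.2 CPM in the ControlA samples and 14.2, 12.9 and 13.8 CPM in the ApoE4 samples. In the nApoE3 experiment it was 66.6, 67.1 and 65.3 CPM in ControlB and 19 and 19.3 CPM in ApoE3. Each treated sample was thus far below each control, and the groups did not overlap in either experiment. The level fell by 72.2% with nApoE4 (log2 fold change -1.85, standard error 0.067, edgeR adjusted p = 1.71e-08), and 2.06% of all genes tested had a change as low. With nApoE3 it fell by 71.2% (log2 fold change -1.80, standard error 0.036, edgeR adjusted p = 5.11e-13). The difference between the fragments, nApoE4 minus nApoE3, was -0.06 on the log2 scale with a 95% interval from -0.21 to 0.09.

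Cdt1 is the partner of Cdc6 in loading and the factor whose destruction in S phase prevents relicensing. It lies on chromosome 8 (122568015 to 122573130, plus strand). Levels were 190, 207 and 200 CPM in ControlA and 97.7, 107 and 97.7 CPM in ApoE4. They were 180, 181 and 181 CPM in ControlB and 110 and 105 CPM in ApoE3. All treated samples were lower than all controls, and ControlB was below ControlA without overlap. Cdt1 fell by 49.2% with nApoE4 (log2 fold change -0.98, standard error 0.064, edgeR adjusted p = 9.74e-07) and by 40.9% with nApoE3 (log2 fold change -0.76, standard error 0.026, edgeR adjusted p = 8.4e-11). The decrease was larger with nApoE4, with a difference of -0.23 on the log2 scale (95% interval -0.37 to -0.09, edgeR adjusted p = 0.0333 for the interaction). This call was not stable, since it passed in 7 of 17 alternative settings, with adjusted p-values from 0.0113 to 0.159. It was lost without ApoE4 replicate 1 or 3 and without any ControlB or ApoE3 replicate, where the adjusted p-values were 0.0618 to 0.159.

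The 6 genes of the helicase ring fell together with both fragments. Their summed level was 1824 ± 61 CPM (SD, n = 3) in ControlA and 1121 ± 26.6 CPM (SD, n = 3) in ApoE4, which is 61.4% of the control mean. It was 2317 ± 25.2 CPM (SD, n = 3) in ControlB and 1501 ± 12.4 CPM (SD, n = 2) in ApoE3, or 64.8% of the control mean. These sums are a description with no test. Each of the 6 genes passed the test on its own for each fragment.

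Mcm7, a core subunit of the helicase that also binds the retinoblastoma protein, showed the largest decrease of the 6 with nApoE4. It lies on chromosome 5 (138164583 to 138172111, minus strand). Levels were 298, 320 and 300 CPM in ControlA and 171, 163 and 168 CPM in ApoE4. They were 339, 325 and 334 CPM in ControlB and 193 and 188 CPM in ApoE3. The treated samples clustered tightly below their controls, with a decrease by 45.2% for nApoE4 (log2 fold change -0.87, standard error 0.059, edgeR adjusted p = 1.35e-06) and 43% for nApoE3, where the log2 fold change was -0.81 (standard error 0.026, edgeR adjusted p = 3.8e-11).

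Mcm2, which carries a histone-binding tail and forms a gate of the ring with Mcm5, showed the largest decrease of the 6 with nApoE3. It lies on chromosome 6 (88883474 to 88898780, minus strand). Levels were 205, 207 and 214 CPM in ControlA and 118, 117 and 122 CPM in ApoE4. They were 273, 273 and 276 CPM in ControlB and 155 and 154 CPM in ApoE3. The replicates of each group differed by far less than treated and control samples did. The log2 fold change was -0.81 with nApoE4 (standard error 0.055, edgeR adjusted p = 1.35e-06) and -0.84 with nApoE3 (standard error 0.022, edgeR adjusted p = 7.21e-12).

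Mcm6, the subunit that binds Cdt1, showed the smallest decrease of the 6 with nApoE4. It lies on chromosome 1 (128331575 to 128359705, minus strand). Levels were 432, 486 and 447 CPM in ControlA and 314, 304 and 305 CPM in ApoE4. They were 538, 529 and 533 CPM in ControlB and 377 and 372 CPM in ApoE3. ControlA replicate 2 stood above the others, and all treated samples were nevertheless below all controls. The log2 fold change was -0.56 with nApoE4 (standard error 0.065, edgeR adjusted p = 5.78e-05) and -0.52 with nApoE3 (standard error 0.02, edgeR adjusted p = 2.52e-10).

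Mcm3, Mcm4 and Mcm5 lay between these genes with nApoE4. Mcm3 (chromosome 1, 20802966 to 20820312, minus strand), which contacts the loader during ring assembly, had 314, 332 and 311 CPM in ControlA against 208, 200 and 193 CPM in ApoE4, and 412, 397 and 410 CPM in ControlB against 288 and 285 CPM in ApoE3. Its log2 fold changes were -0.67 (standard error 0.061, edgeR adjusted p = 1.07e-05) with nApoE4 and -0.51 (standard error 0.023, edgeR adjusted p = 1.13e-09) with nApoE3, the smallest of the 6 for that fragment. Mcm4 (chromosome 16, 15623897 to 15637400, minus strand), whose tail is a substrate of the Cdc7 kinase, had 165, 171 and 164 CPM in ControlA against 105, 100 and 95.5 CPM in ApoE4, and 229, 226 and 230 CPM in ControlB against 137 and 138 CPM in ApoE3. Its log2 fold changes of -0.72 (standard error 0.059, edgeR adjusted p = 4.7e-06) and -0.74 (standard error 0.023, edgeR adjusted p = 3.48e-11) were close for the fragments. Mcm5 (chromosome 8, 75109468 to 75128439, plus strand), the other side of the gate, had 360, 376 and 370 CPM in ControlA against 236, 222 and 223 CPM in ApoE4, and 543, 538 and 545 CPM in ControlB against 359 and 355 CPM in ApoE3. Its log2 fold changes were -0.70 (standard error 0.059, edgeR adjusted p = 6.22e-06) and -0.61 (standard error 0.02, edgeR adjusted p = 5.52e-11).

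For none of the 6 ring genes did the difference between fragments pass the edgeR test. The differences, nApoE4 minus nApoE3 on the log2 scale, were 0.02 for Mcm2 (95% interval -0.10 to 0.13), -0.17 for Mcm3 (-0.30 to -0.04, adjusted p = 0.08) and 0.00 for Mcm4 (-0.13 to 0.13). They were -0.10 for Mcm5 (-0.22 to 0.02), -0.06 for Mcm6 (-0.19 to 0.08) and -0.07 for Mcm7 (-0.20 to 0.06). The intervals are approximate and leave room for differences of up to 0.3, and Mcm3 passed in 1 of 17 alternatives, DESeq2's Wald test, at an adjusted p of 0.0443. Without an adjustment its interval also lay below 0.

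Mcm10, which binds the loaded helicase and is needed for DNA unwinding, was the gene with the clearest difference between the fragments. It lies on chromosome 2 (4990724 to 5012791, minus strand). Levels were 74.2, 76.9 and 80.8 CPM in ControlA and 54.6, 53.8 and 53.7 CPM in ApoE4. They were 124, 123 and 124 CPM in ControlB and 133 and 126 CPM in ApoE3. All nApoE4 samples were below their controls, whereas the nApoE3 samples were slightly above theirs. Mcm10 fell by 29.9% with nApoE4 (log2 fold change -0.51, standard error 0.056, edgeR adjusted p = 3.68e-05). With nApoE3 the log2 fold change was 0.06 (standard error 0.028, edgeR adjusted p = 0.0802), which missed the threshold. This last value turned with the scaling, to -0.07 (adjusted p = 0.027) with library totals alone, and passed the test as an increase in 3 alternatives, DESeq2 size factors (0.07, adjusted p = 0.0473), the stricter filter (0.07, adjusted p = 0.0363) and the fit without ApoE3 replicate 2 (0.09, adjusted p = 0.0222).

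The interaction was -0.58 for Mcm10 (standard error 0.064, edgeR adjusted p = 2.47e-05), and it passed in all 17 alternatives with values from -0.62 to -0.53. Mcm10 and Cdt1 were the 2 of the 10 licensing genes called for the difference between fragments, both lower with nApoE4, while 28.3% of 15287 genes were called in either direction, 14.4% higher and 13.9% lower. The untreated levels of Mcm10 also differed more than those of any other licensing gene, with a log2 difference of 0.68 between ControlB and ControlA (standard error 0.043, edgeR adjusted p = 1.93e-08). The ApoE4 samples thus had the lowest levels of Mcm10 and the samples of the nApoE3 experiment the highest. The fragment and the untreated level of its experiment cannot be told apart in this difference.

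**Figure D2:**
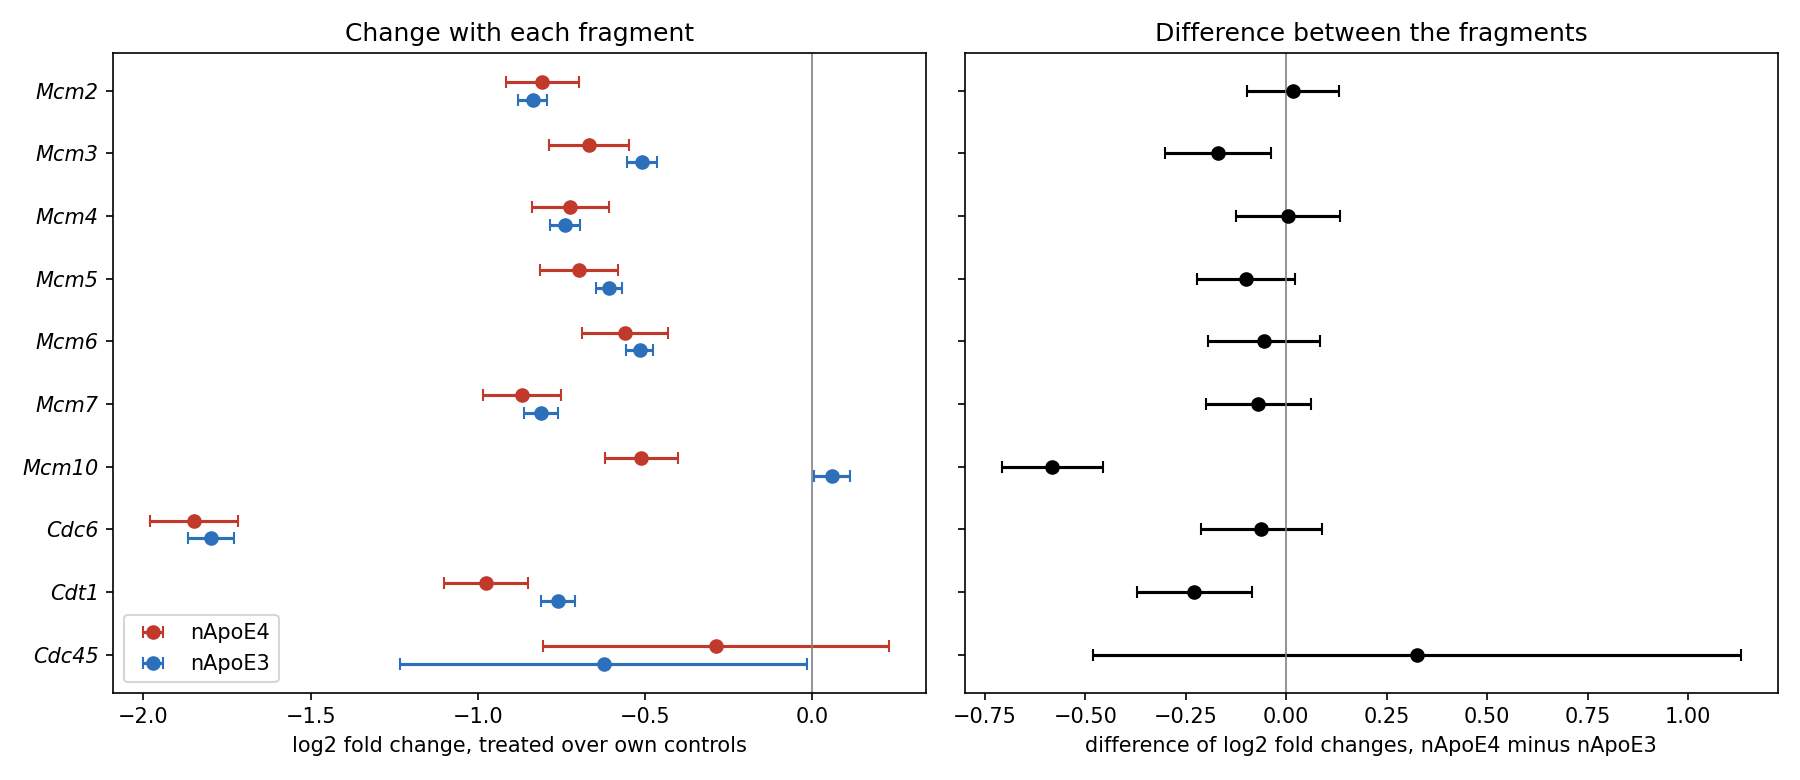
The left panel plots the log2 fold change of each licensing gene over its own controls for nApoE4 (red) and nApoE3 (blue), and the right panel plots the difference, nApoE4 minus nApoE3, with bars that mark approximate 95% intervals. Cdc6 lies near -1.8 for both fragments, and the interval of the difference is farthest below 0 for Mcm10, at -0.58.

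Cdc45, which completes the active helicase together with GINS, was near the limit of detection. It lies on chromosome 16 (18780447 to 18811972, minus strand). Raw counts were 27, 22 and 28 in ControlA and 17, 17 and 24 in ApoE4, and 34, 34 and 28 in ControlB and 25 and 13 in ApoE3, while 3 counts correspond to 0.043 to 0.0755 CPM. In CPM the groups overlapped with nApoE4 and did not with nApoE3. The log2 fold changes were -0.29 with nApoE4 (95% interval -0.81 to 0.23, edgeR adjusted p = 0.378) and -0.62 with nApoE3 (95% interval -1.23 to -0.01, edgeR adjusted p = 0.0951). The nApoE4 interval reaches past the decreases of Mcm3, Mcm4, Mcm5 and Mcm6 but not past that of Mcm7. With nApoE3 the test was passed in 2 of 12 alternatives, library totals alone (-0.76, adjusted p = 0.0457) and the fit without ApoE3 replicate 1 (-1.14, adjusted p = 0.0268). Cdc45 overlaps Ufd1 by 237 bases in RefSeq, and this neighbour, listed under its older symbol Ufd1l, also had few counts, at 0.124 to 0.513 CPM. Cdc45 further overlaps the long non-coding RNA gene Gm52240 by 1687 bases, and no gene of that symbol is listed in the deposited counts. The overlap mode and strand setting of the counting are not given in the sources used here, and their part in these low counts was not tested.

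Levels of different genes were compared per length, as CPM per kilobase of the merged exons of protein-coding transcripts. In ControlA, Mcm5 (107 ± 2.38), Mcm3 (105 ± 3.74) and Mcm6 (104 ± 6.32) were the highest and overlapped between samples (SD, n = 3). Cdt1 at 91 ± 3.84 and Mcm7 at 83.1 ± 3.37 followed, also with overlap, then Mcm2 at 61.9 ± 1.32, Mcm4 at 46.4 ± 1.02, Mcm10 at 15.6 ± 0.67, Cdc6 at 10.3 ± 0.499 and Cdc45 at 0.255, and from Mcm2 downwards neighbours in this order did not overlap. The loader Cdc6 was thus the least abundant of the 9 genes that were well detected. In ApoE4, Mcm6 was the highest at 70.3 ± 1.31, Cdt1 and Mcm7 again overlapped, and Cdc6 was at 2.86 ± 0.141. In ControlB and ApoE3, Mcm5 was the highest at 157 ± 1.09 and 103 ± 0.898, and Mcm4 was the lowest of the 6 ring genes in every sample.

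The ring genes did not fall in strict proportion. The highest of the 6 was 2.27 to 2.34 times the lowest per length in ControlA and 2.45 to 2.62 times in ApoE4, and 2.46 to 2.47 times in ControlB against 2.67 to 2.73 times in ApoE3. The share of Mcm7 in the summed level per length was 16.2 to 16.6% in ControlA and 14.4 to 14.9% in ApoE4, and 13.8 to 14.1% in ControlB and 12.2 to 12.5% in ApoE3. The share of Mcm6 was 20 to 21.1% in ControlA and 22.5 to 22.8% in ApoE4, and 18.7 to 18.9% in ControlB and 20.4% in ApoE3. For both genes the samples of treated and control groups were apart. With the exons of all transcripts as the length, Mcm2 took the place of Mcm4 as the lowest and the ratio of highest to lowest was 3.25 in ControlA, 3.85 in ApoE4, 3.45 in ControlB and 4.05 in ApoE3, an alternative chosen after the data were seen.

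**Figure D3:**
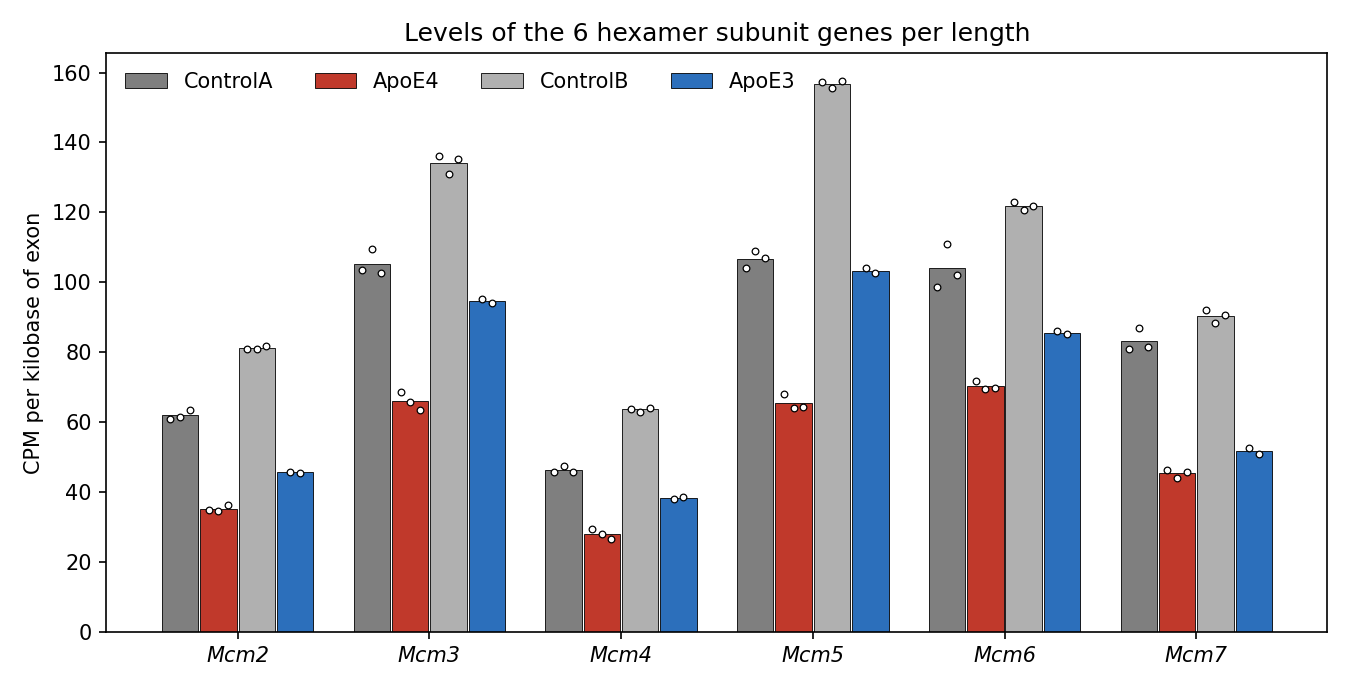
Bars give the mean CPM per kilobase of exon of each ring gene in the 4 groups, with dots for single samples and an axis that starts at 0. Mcm4 is the lowest in every group, and each treated bar is below that of its own controls.

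The untreated samples of the experiments differed in most of these genes. In ControlB, 8 of the 10 genes were higher than in ControlA and Cdt1 was lower, with a log2 difference of -0.14 (edgeR adjusted p = 0.0207), while Cdc45 did not pass. Of 15287 genes tested, 69.4% were called in either direction, 35.1% higher and 34.3% lower. The log2 differences of the 8 higher genes ran from 0.12 for Mcm7 (adjusted p = 0.0268) to 0.68 for Mcm10. The calls for Mcm7 and Cdt1 passed in 10 and 14 of 17 alternatives. The call for Mcm7 was lost without ControlA replicate 1 or 3 and without ControlB replicate 1 or 3, at values of 0.10 to 0.12, and that for Cdt1 without any ControlB replicate. Both groups were untreated, and experiment and any batch cannot be told apart here. For the difference between fragments there is no experiment that holds both.

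Genes that control licensing were called in both directions. The list of 16 holds the origin recognition complex, inhibitors of Cdt1, ubiquitin ligases and MCM relatives. With nApoE4, 6 of the 15 genes tested fell, 4 rose and 5 did not pass (median log2 fold change -0.11), and with nApoE3, 8 of 16 fell, 6 rose and 2 did not pass (median -0.10), where 28.6% of all genes rose and 28.6% fell with nApoE4 and 33.1% rose and 34.6% fell with nApoE3. Gmnn, the geminin gene whose product binds and blocks Cdt1, fell by 1.5 on the log2 scale with nApoE4 (edgeR adjusted p = 1.08e-07) and by 1.65 with nApoE3 (edgeR adjusted p = 5.73e-13). Its level was 70.7, 78.2 and 67.4 CPM in ControlA and 25.7, 24 and 26.3 CPM in ApoE4, and 97.5, 96.5 and 97.5 CPM in ControlB against 31.9 and 30.3 CPM in ApoE3. Dtl, the substrate receptor of the ubiquitin ligase that destroys Cdt1 in S phase, fell by 1.26 and 1.40. The decrease of both genes was greater in size than that of Cdt1 itself, and their difference between the fragments did not pass (edgeR adjusted p = 0.28 for Gmnn and 0.251 for Dtl).

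Mcm9, a relative of the ring genes that acts in recombination repair, rose while these fell. Its level was 30.7, 25.9 and 29.3 CPM in ControlA and 40.2, 37.8 and 38.4 CPM in ApoE4, and 24.8, 24.9 and 26.7 CPM in ControlB against 71.5 and 70.6 CPM in ApoE3. The log2 fold change was 0.44 with nApoE4 (edgeR adjusted p = 0.000639) and 1.48 with nApoE3 (edgeR adjusted p = 4.88e-12), and the interaction was -1.04 (edgeR adjusted p = 2.71e-06). Fzr1, an activator of the anaphase-promoting complex, rose by 0.41 with nApoE4 and 0.29 with nApoE3, and Orc4, an origin recognition subunit, rose by 0.39 and 0.31.

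Of 16 genes of origin firing, 10 fell and 2 rose with nApoE4 (median -0.42), and 13 fell and none rose with nApoE3 (median -0.70). Among all genes tested, 28.6% fell and 28.6% rose with nApoE4, and 34.6% fell and 33.1% rose with nApoE3. Ccne1, the cyclin E1 gene, fell by 1.58 with nApoE4 and by 1.33 with nApoE3, its relative Ccne2 fell by 1.36 and 1.24, and Wdhd1, which ties the helicase to DNA polymerase alpha, fell by 1.14 and 1.46. The genes that rose with nApoE4 were Mtbp and Recql4, which both act in helicase activation. Recql4 had 40.2, 37.1 and 41.3 CPM in ControlA and 62.9, 66.1 and 64 CPM in ApoE4, against 36.5, 36.7 and 35.9 CPM in ControlB and 16.5 and 18.8 CPM in ApoE3. It rose by 0.71 with nApoE4 (edgeR adjusted p = 7.39e-06) and fell by 1.05 with nApoE3 (edgeR adjusted p = 2.34e-09), with an interaction of 1.74 (edgeR adjusted p = 2.78e-08). Mtbp rose by 0.77 with nApoE4 (edgeR adjusted p = 1.81e-06) and had a log2 fold change of -0.08 with nApoE3 that did not pass (edgeR adjusted p = 0.0759), with an interaction of 0.83 (edgeR adjusted p = 1.47e-06).

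Most replication fork genes were also lower. With nApoE4, 24 of 31 fell, 1 rose and 6 did not pass (median -0.40), and with nApoE3, 29 fell and 2 rose (median -0.54). The shares of all genes were 28.6% lower and 28.6% higher with nApoE4, and 34.6% lower and 33.1% higher with nApoE3. Dna2, a nuclease of lagging strand synthesis, fell by 1.46 and 1.18, and Clspn, the claspin gene, fell by 1.30 and 1.47. Pola2, a subunit of DNA polymerase alpha, rose by 0.17 with nApoE4 and 0.13 with nApoE3. Of 10 genes of nucleotide supply, 9 fell and 1 rose with nApoE4 (median -0.58) and 8 fell and 2 rose with nApoE3 (median -0.40). Tk1, the thymidine kinase gene, fell by 1.01 and 1.36 and Rrm2, the S phase subunit of ribonucleotide reductase, fell by 0.89 and 0.93, whereas Rrm2b, the form of this subunit known for induction by p53, rose by 0.85 and 0.46.

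Of 12 E2F and RB regulators tested, 9 fell and none rose with nApoE4 (median -0.58), and 10 fell and 2 rose with nApoE3 (median -0.64). E2f2 and E2f1, activators of the licensing genes, had log2 fold changes of -1.37 and -1.35 with nApoE4 and -1.89 and -0.89 with nApoE3, and Tfdp2, a dimer partner of E2F, had -0.98 and -1.69. Of the 16 genes of G2 and mitosis, with nApoE4, 10 fell and 2 rose (median -0.24), and with nApoE3, 5 fell and 7 rose (median 0.01). Both lists stand against 28.6% lower and 28.6% higher of all genes with nApoE4. With nApoE3 these shares were 34.6% lower and 33.1% higher. Aurkb and Bub1b had the largest falls of this list with nApoE4, by 0.75 and 0.62, and fell by 0.37 and 0.52 with nApoE3. Ccnb1 had the largest rise with nApoE3, by 0.30 (edgeR adjusted p = 1.18e-07). Top2a, the topoisomerase II alpha gene, rose by 0.19 with nApoE4 and by 0.29 with nApoE3. For 8 of these 16 genes the interaction was called lower and for none higher, against 13.9% and 14.4% of all genes. The lists are described by their counts and medians and were not tested as sets.

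**Figure D4:**
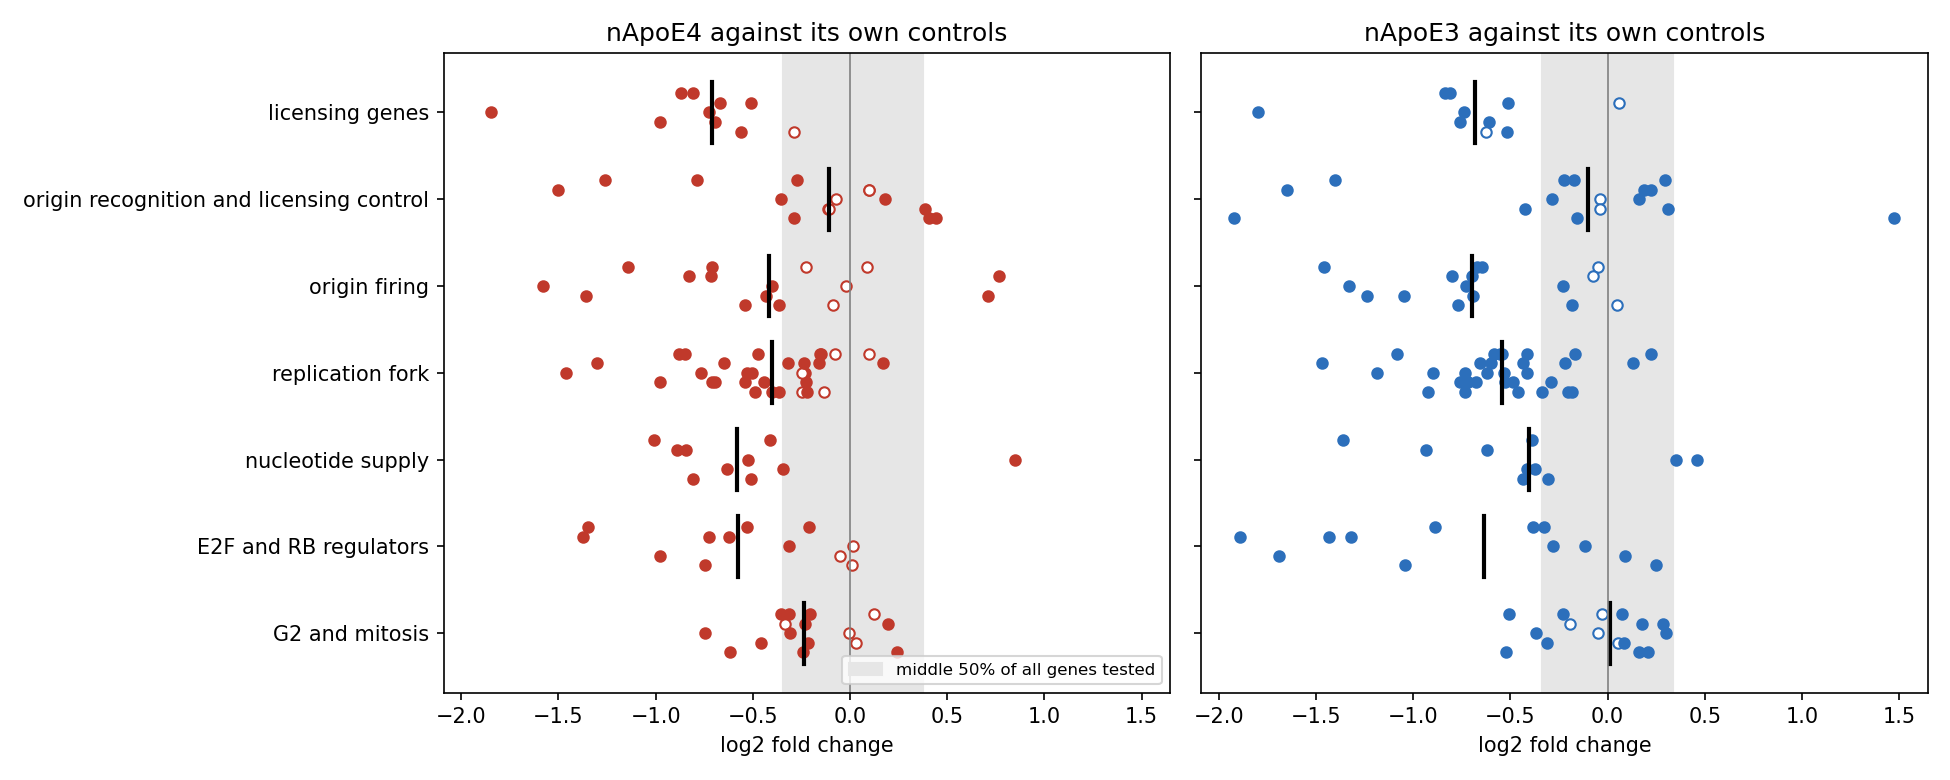
Each dot is a gene of a list, placed by its log2 fold change with nApoE4 (left) or nApoE3 (right), filled where the adjusted p-value was under 0.05 and open where it was not. Black lines are list medians and the grey band holds the middle 50% of all genes tested. The medians of the licensing genes, -0.71 and -0.68, lie below the band in both panels. So do those of origin firing, replication fork, nucleotide supply and the E2F and RB regulators.

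The genes whose pattern was most like that of the ring genes were found over the 11 samples, with the mean of each experiment subtracted from log2 CPM. Among 8841 genes with a mean of at least 10 CPM over the samples, the 5 genes outside the licensing genes with the highest Pearson correlation to the mean of Mcm2 to Mcm7 were Ccne2 (r = 0.9988), Mxi1 (0.9983), Paqr7 (0.9983), Trim63 (0.9981) and Apobec1 (0.9981). Ccne2 passed this minimum through its controls, with means of 13.5 CPM in ControlA and 20.5 CPM in ControlB against 5.23 CPM in ApoE4 and 8.70 CPM in ApoE3. Cdc6 had r = 0.9984 and Cdt1 r = 0.9907, whereas Mcm10 had r = 0.6916 and rank 2972. The samples fall into treated and control clusters and share libraries across genes, so that these values describe the step between the clusters and no p is given.

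Genes that overlap a licensing gene or start near it were read from the annotations. Prkdc, the DNA-dependent protein kinase gene, starts 466 bases from Mcm4 in the opposite direction and had a log2 fold change of -0.26 with nApoE4 that did not pass (edgeR adjusted p = 0.12), and it fell by 0.61 with nApoE3 (edgeR adjusted p = 3.06e-08). Ap4m1, an adaptor complex gene, overlaps Mcm7 by 91 bases and fell by 0.64 with nApoE4 (edgeR adjusted p = 1.93e-05) and by 0.94 with nApoE3 (edgeR adjusted p = 3.68e-08). With the strand setting unknown, reads from the overlap cannot be told apart, so these values are uncertain for both genes. The microRNA genes Mir25, Mir93 and Mir106b, which overlap Mcm7 by 82 to 88 bases, had no counts in any sample. With 75-base reads and an unknown overlap mode, this lack of counts does not show that they are not expressed.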

How the data were processed

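BV2 RNA was sequenced as 75-base single-end reads. Per the labels and the study's methods, reads were trimmed with Trim Galore 0.5.0, checked with FastQC 0.11.8, mapped to GRCm38.p6 with HISAT2 2.1.0 and counted with HTSeq 0.11.0. The authors deposited raw counts per gene symbol for each sample, without normalization. The annotation release, strand setting and overlap mode are not given in the sources used here. Between 76 and 77.7% of tallied reads were on genes, and tallies of other reads were left out.

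The test was that of edgeR 4.0.16 in R 4.3.3 (filterByExpr, TMM, quasi-likelihood F test, Benjamini-Hochberg adjustment over all genes, threshold 0.05). Treated samples were set against the controls of their experiment, and the interaction and the controls were tested in a fit of 11 samples with 4 group means. Standard errors are approximate, being derived from the log2 fold change and F, and 95% intervals follow from them under a normal approximation. Intervals and floors of 3 counts cover what the samples show and counting error only. Low counts limit mainly Cdc45. All pairs of replicates differed beyond counting noise.

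Members and gene lists were chosen with earlier results of these data known. Of each list, the 2 largest rises and falls per fragment past the threshold at 5 CPM or more could be named, besides all 10 licensing genes, the 5 most alike genes and genes that overlap them or start within 1000 bases. DESeq2 1.42.0, other scalings and filters, a replicate block, a joint fit and leaving out each replicate were the alternatives. The scripts were checked on simulated counts. Of changes set to 1.5-fold, 79% were recovered for nApoE4, 72% for nApoE3, 64% for the interaction and 73% for the controls. Genes that had not been changed made up 8.38%, 5.95%, 4.76% and 3.07% of the calls, in the same order.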

Additional observations from a re-analysis of the deposited data

Results flagged for a closer look

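The log2 response of Mcm10 to nApoE4 minus that to nApoE3 was -0.58, and that of Cdt1 was -0.23, and both were noted because the edgeR interaction passed an adjusted p of 0.05. Mcm10 fell in 3 of 3 ApoE4 samples and was higher in 2 of 2 ApoE3 samples than in every control of the same experiment, on the TMM scale. Cdt1 was lower in every treated sample of both experiments, and its interaction passed in 7 of 17 alternatives. Single values were not screened for outlying samples in groups of 3 and 2, and the library that stood apart over all genes was ControlA replicate 2, without which both differences still passed the test.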

How the results depend on the processing

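The decreases of 9 licensing genes with nApoE4 held in direction and call in all 13 alternatives, and the 8 with nApoE3 in all 12. Over all licensing genes and comparisons, 554 alternative values kept their direction and side of the threshold, 20 lost a call, 6 gained a call and 10 changed sign. Mcm10 with nApoE3 changed sign to -0.0732 with library totals alone. The difference between fragments of Mcm4, near 0, was -0.00375 with DESeq2, -0.00389 with DESeq2 size factors, -0.00137 with the replicate block and -0.03 to 0.04 on leaving out each replicate, and that of Cdc45 was -0.0514 to 0.844 on leaving out each replicate. The number of licensing genes called for the difference between fragments, 2 in the fit reported, was 1 with library totals alone, 1 without the filter, 1 with the replicate block, 3 with DESeq2 and 1 to 2 on leaving out each replicate. The summed level of Mcm2 to Mcm7 with library totals alone was 57.9% of the controls for nApoE4 and 58.8% for nApoE3. The cause of these shifts was not tested.

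Samples that share a replicate number did not deviate together (correlations -0.0715, -0.253 and -0.103 for nApoE4, 0.00843 and -0.0139 for nApoE3), so the numbers were not taken as pairs. With the replicate block, the genes called went from 8145 to 7036 for nApoE4, 10034 to 9784 for nApoE3, 4331 to 2307 for the interaction and 10614 to 10268 for the controls, and 9, 8, 1 and 8 licensing genes were called. Low counts limit the test of Cdc45, with 13 to 34 counts per sample, and why its counts were low was not tested.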

Other observations

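For the difference between fragments, the lists around licensing did not share a direction. Of 16 origin firing genes, the edgeR interaction was called higher for 6 and lower for 2, and of 31 replication fork genes for 8 and 3. Of 12 E2F and RB regulators it was higher for 5 and lower for 2, and of 10 genes of nucleotide supply for 2 and 3, against 14.4% and 13.9% of all genes. In the untreated samples, 10 of 16 genes of G2 and mitosis were higher and 2 lower in ControlB than in ControlA, 23 of 31 replication fork genes were higher and 2 lower, and 12 of 16 genes of licensing control were higher and 4 lower, against 35.1% and 34.3% of all genes.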
